A study of Homo sapiens with 6 samples.

Results

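The results below are those of 9 array probes, 60 bases each, that stand for 5 long non-coding RNAs (lncRNAs): lncBCAS1-4_1 (1 probe), lncZNF599-3_6 (4 probes), lncMBOAT1-4_2 (2 probes), lncRWDD4-5_1 (1 probe) and lncKRT7-2_2 (1 probe). The array held 125584 probes with a value on every array. The 5 lncRNAs were chosen from the study's own treated-against-vehicle array results and then measured by RT-PCR, so the difference between the labelled groups is what selected them, and for these probes it is given as a description with no test. Their probe IDs were given with the list of lncRNAs, since the scanner files hold probe IDs and probe sequences and no lncRNA names.

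The RNA came from SKOV3 cells, an established line of human ovarian adenocarcinoma that grows as an adherent epithelium and carries an amplified ERBB2 gene. The cells were grown in RPMI medium with fetal bovine serum, and 3 arrays were labelled VD, for 1α,25(OH)2D3 at 100 nmol/L over 72 h, and 3 were labelled vehicle, for ethanol alone over the same time. Each array measured 1 Cy3-labelled sample in a single colour, and nothing in the labels says that the samples of a group came from separate cultures, so p-values measure only the spread between these samples. All 6 arrays came from 1 cell line, which limits what they can stand for.

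1α,25(OH)2D3 is the active hormone form of vitamin D. It binds the vitamin D receptor (VDR), which pairs with a retinoid X receptor on DNA and changes the transcription of nearby genes. CYP24A1 encodes the mitochondrial 24-hydroxylase that breaks the hormone down, and its induction is the usual sign that cells have responded. LncRNAs are transcripts without a long reading frame, and a name such as lncBCAS1-4_1 gives a nearby protein-coding gene, a locus number and an isoform number, not a function.

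The probe sequences of 4 of the 5 lncRNAs are shown first, because probes of the same lncRNA share most of their bases and each probe decides which transcripts can light the spot. Positions are exact matches of the probes to the hg38 genome, with GENCODE release 44 as the annotation, and all sequences are written 5′ to 3′ on the strand of the RNA.
OEV5_63001 (lncBCAS1-4_1): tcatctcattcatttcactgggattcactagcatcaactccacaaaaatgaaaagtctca
This probe matched chr20:54162581-54162640 on the minus strand, in the sense direction of CYP24A1. The match lay in an exon of 1 CYP24A1 transcript without a defined reading frame and outside the exons of the main coding transcript, and the probe had no other exact match in the genome.

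The 4 probes of lncZNF599-3_6 lie over 1 exon of LINC03049, a lncRNA gene on the minus strand at chr19:34849046-34860747. The lower-case stretch belongs to the exon that ends at position 34850669, and the capitals mark the bases after that exon end.
OEV5_42562: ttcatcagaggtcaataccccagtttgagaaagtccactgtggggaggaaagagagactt
OEV5_42261: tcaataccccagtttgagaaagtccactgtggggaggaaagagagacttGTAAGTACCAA
OEV5_39684: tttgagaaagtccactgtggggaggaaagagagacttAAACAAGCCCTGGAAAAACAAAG
A_21_P0009803: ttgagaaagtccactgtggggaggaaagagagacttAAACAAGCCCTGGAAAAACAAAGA
OEV5_42562 had no base past the exon end and matched 5 LINC03049 transcripts. OEV5_39684 and A_21_P0009803 ran on for 23 and 24 bases into the next exon of the spliced transcripts, at chr19:34849527-34849549 and chr19:34849526-34849549, and each matched 4 transcripts. OEV5_42261, at chr19:34850658-34850717, instead ran on for 11 bases into genomic sequence that those transcripts splice out, and it matched 1 transcript with a longer exon. So the set holds a probe for the exon itself, a pair for the splice junction and 1 for the unspliced or extended form, and these 4 were all the LINC03049 probes on the array. The exon also overlaps, on the opposite strand, an exon of LINC02965.

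The 2 probes of lncMBOAT1-4_2, OEV5_35072 and OEV5_36693, lie in an exon of LNC-LBCS, a lncRNA gene on the minus strand of chromosome 6. They share 56 bases, and both matched 8 LNC-LBCS transcripts, so they are close to a repeat measurement of 1 target.

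The probe of lncRWDD4-5_1 is shown because no annotated gene lies on its strand.
OEV5_02929: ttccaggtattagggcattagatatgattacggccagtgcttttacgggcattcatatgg
It matched chr4:183731784-183731843 on the minus strand, inside an intron of a lncRNA gene of the opposite strand (ENSG00000287349).

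The probe of lncKRT7-2_2 is shown beside another probe of the array that covers the same place 1 base further upstream, with the base that each has alone in capitals.
OEV5_74819 (lncKRT7-2_2): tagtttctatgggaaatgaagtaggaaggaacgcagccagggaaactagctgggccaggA
OEV5_72745: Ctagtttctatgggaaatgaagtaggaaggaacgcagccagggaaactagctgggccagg
OEV5_74819 matched chr12:52232665-52232724 on the plus strand, in the sense direction of KRT7, in an exon of 2 KRT7 transcripts without a defined reading frame and outside the exons of its main coding transcript. OEV5_72745 matched chr12:52232664-52232723 and shared 59 bases with it.

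The arrays went against their labels at CYP24A1, and the lncRNA values have to be read with that in view. The values are log2 processed signals after subtracting the 75th percentile of each array, so 0 is that percentile and negative values are dimmer. The CYP24A1 probe A_23_P28815 read -5.10, 6.70 and -3.80 on the arrays labelled VD 1, VD 2 and VD 3, and 6.90, -2.48 and 7.29 on those labelled vehicle 1, vehicle 2 and vehicle 3. It was well above background, as the scanner software calls it, on VD 2, vehicle 1 and vehicle 3 and on no other array. No sample was moved to another group, so every mean and every test below keeps the labels, and the arrays are also listed one by one. The study gives CYP24A1 as raised by the treatment, by array and by RT-PCR, which is not the direction between these labels. Whether labels or files were exchanged before deposit was not tested, and the sign of each difference between labels holds only as far as the labels do. Of the 10 vitamin D genes on a list of receptors, enzymes and known targets, 9 passed the filter on dim probes and at the brightest probe of each none passed the limma test of the label contrast (0 with adjusted p under 0.05, and 0 with unadjusted p under 0.05). By array, 6 of the 10 were higher on all of VD 2, vehicle 1 and vehicle 3 than on any other array, an order met by 2.66% of all probes: CYP24A1, whose own probe defines it, the calcium channel TRPV6, thrombomodulin (THBD), the phosphate antiporter SLC37A2, the lipolysis inhibitor G0S2 and the sulfotransferase SULT1C2. THBD, for instance, read 4.72, 4.19 and 3.95 there, and 0.41, 0.15 and 2.69 on VD 1, VD 3 and vehicle 2. The study lists TRPV6, THBD, SLC37A2, G0S2 and SULT1C2 among the mRNAs correlated with lncBCAS1-4_1 on these arrays. Their order is therefore a description and no separate support for it. VDR itself was at 0.25, 0.06 and 0.06 on the VD arrays and -0.14, 0.09 and -0.28 on the vehicle arrays, with no such order. RXRA, CYP27B1 and CYP2R1, which like VDR are not among those mRNAs of the study, did not have it either.

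The other facts of the series are short. The scanner software called 49.1% to 57.5% of probes well above background, depending on the array, no spot was saturated, and the rank correlation between any 2 arrays lay between 0.934 and 0.960. Of 9 epithelial marker genes 7 had a probe that matched them alone, and ERBB2, EPCAM, KRT7, KRT8, KRT19, PAX8 and MUC16 were all well above background on all 6 arrays. The same call was met by 4 of 4 leukocyte and 3 of 3 endothelial markers, and of 2 fibroblast markers DCN was below it on every array and COL1A1 was above it on 3. The summed signal of the leukocyte list spanned 2.39 to 2.66 (log2) on the VD arrays and 2.39 to 2.50 on the vehicle arrays, that of the endothelial list 1.82 to 1.95 and 1.67 to 2.25, that of the fibroblast list -2.73 to -1.58 and -3.62 to -1.47, and that of the epithelial list 9.41 to 9.74 and 9.65 to 9.93. With the labels kept, 63332 probes passed the filter and 514 of them, or 0.812%, passed a fold change of 2 with unadjusted p under 0.05 by limma. After Benjamini-Hochberg adjustment over all of them 0 passed, and 4089 had an unadjusted p under 0.05 at any fold.

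Of the 9 lncRNA probes, 2 passed the filter and 0 were called by fold change and unadjusted p; with no filter, 0 of the 9 were called, where 1.6% of all 125584 probes were. None of the 9 had labelled groups that did not overlap, against 8.61% of all probes. These counts use the contrast that chose the probes and are printed only beside that background. In its text the study gives the lncRNA named after BCAS1 as higher after treatment and the one named after RWDD4 as lower. It describes its RT-PCR results for the 5 lncRNAs as similar to its array results. It also reports the rise of lncBCAS1-4_1 by RT-PCR in SKOV3 cells and in another ovarian cancer line. Between the deposited labels the mean difference, VD less vehicle, was -2.92 for OEV5_63001, opposite to that direction, and -0.04 for OEV5_02929. The median difference of the 9 was -0.15 and 1 of them was above 0, against a median of -0.03 and 46.2% above 0 over all probes. By array instead, 5 of the 9 probes were higher on each of VD 2, vehicle 1 and vehicle 3 than on any other array, an order met by 2.66% of all probes. A further 2 were lower on each of these 3 arrays than on any other, as were 5.83% of all probes. The 5 higher probes are the single probe of lncBCAS1-4_1 and the 4 of lncZNF599-3_6, the 2 lower ones are those of lncRWDD4-5_1 and lncKRT7-2_2, and the LNC-LBCS pair had neither order. Probes of 1 lncRNA share bases and samples, so they do not count as separate observations.

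LncBCAS1-4_1 had the widest spread of the set. OEV5_63001 read -5.24 on VD 1, 2.85 on VD 2 and -4.91 on VD 3, and 3.09 on vehicle 1, -4.73 on vehicle 2 and 3.09 on vehicle 3. In processed signal, before scaling, these were 3.60, 1029 and 5.30 units on the VD arrays and 1221, 5.59 and 1187 units on the vehicle arrays. The probe was thus bright on 1 VD array and 2 vehicle arrays, and not well above background on the other 3, with nothing in between. The mean of the VD arrays was -2.43 ± 4.58 and that of the vehicle arrays 0.48 ± 4.51 (SD, n = 3 each), a difference of -2.92 that is smaller than the pooled SD of 4.55. The gap between its dimmest bright array and its brightest dim array was 7.58, and only 1 probe of the array had a larger gap in that order. That probe was A_23_P28815 of CYP24A1, whose own values define the order, at 6.70 or more on the bright arrays and -2.48 or less on the others. OEV5_63001 lies in a transcript of the same gene, so its rank is a description and no separate result.

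The bright arrays of lncBCAS1-4_1 were those of CYP24A1, the gene in whose transcript its probe lies. The 3 probes that matched CYP24A1 transcripts in the sense direction, OEV5_63001 among them, all had the same 3 arrays on top. A_33_P3369401, a probe of the CYP24A1 mRNA, read -3.16, 7.43 and -2.63 on the VD arrays and 7.93, 1.07 and 8.19 on the vehicle arrays. It was also well above background on vehicle 2, where OEV5_63001 and A_23_P28815 were not. That CYP24A1 probe passed the filter, and its label difference was -5.18 ± 3.0 (SE, n = 3 each; limma adjusted p = 0.711). Signal at OEV5_63001 cannot be told apart here from RNA of other CYP24A1 transcripts or unspliced CYP24A1 RNA that holds the same 60 bases.

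BCAS1, the neighbouring gene that gave lncBCAS1-4_1 its name, was first found as a gene amplified in breast cancer. Its brighter probe A_23_P17420 read -1.55, -0.48 and -1.64 on the VD arrays and -0.54, -1.64 and 0.62 on the vehicle arrays, again with VD 2, vehicle 1 and vehicle 3 on top. The study lists BCAS1 among the mRNAs correlated with lncBCAS1-4_1 on these arrays, so this order is no separate result. The label difference of BCAS1 was -0.70 ± 0.559 (SE, n = 3 each), and it did not pass the test (limma adjusted p = 0.747).

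LncZNF599-3_6 was dim on every array, and its 4 probes split the arrays into the same 3 higher and 3 lower ones. OEV5_42562, the probe of the exon alone, read -4.35, -1.62 and -5.04 on the VD arrays and -1.26, -4.74 and -1.45 on the vehicle arrays. The pair across the splice junction gave -3.33, -2.08 and -4.53 (VD) and -1.59, -4.82 and -1.94 (vehicle) for OEV5_39684. A_21_P0009803, the same junction shifted by 1 base, gave -2.97, -1.44 and -3.97 (VD) and -1.60, -4.76 and -1.81 (vehicle). On all 3 probes VD 2, vehicle 1 and vehicle 3 were the 3 highest arrays, and they were the only arrays on which any of them was well above background.

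OEV5_42261, which reads past the exon end, had that order as well. It gave -3.19, -1.47 and -5.02 on the VD arrays and -1.46, -4.25 and -1.69 on the vehicle arrays. It shares 36 to 49 genome bases with each of the others, so its signal cannot be told apart from that of spliced RNA. In processed signal the 4 probes lay between 33.7 units (OEV5_39684 on VD 2) and 59.8 units (OEV5_42562 on vehicle 1) on the 3 higher arrays, and between 4.86 and 17.4 units on the other 3. Their label differences ranged from -1.18 to -0.07, each smaller than its pooled SD, which lay between 1.52 and 1.88.

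The 3 lower arrays were not alike in all 4 probes. VD 1 was the highest of the 3 lower arrays on each probe, at -2.97 on A_21_P0009803 against -3.97 on VD 3 and -4.76 on vehicle 2. None of these readings was well above background, so they have no firm order among themselves. All 4 share the exon's last bases, from 36 to 59 of 60 genome bases between any pair, so their likeness is that of overlapping oligos.

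A pair of other probes lies inside the LINC03049 gene on its strand without matching an annotated transcript, and was picked after the values were seen. OEV5_77702, which starts at chr19:34850808 in the intron before the exon, read -3.03, -1.96 and -3.35 on the VD arrays and -1.79, -4.85 and -2.17 on the vehicle arrays, with the same 3 arrays highest as for lncZNF599-3_6. OEV5_77898, starting at chr19:34850779 and reaching from the exon into that intron, was bright on all arrays, at 6.31, 6.34 and 6.20 (VD) and 5.83, 5.89 and 6.17 (vehicle), and had no such order. ZNF599, the zinc finger gene of the lncRNA's name, read between 0.37 and 0.59 on all 6 arrays at its brightest probe, with a label difference of -0.03 ± 0.149 (SE, n = 3 each; limma adjusted p = 0.965).

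LncMBOAT1-4_2 was measured on all 6 arrays and hardly moved. OEV5_35072 read 0.80, 0.97 and 1.17 on the VD arrays and 1.18, 1.04 and 1.17 on the vehicle arrays. OEV5_36693 read 0.77, 0.97 and 1.24 on the VD arrays and 1.15, 0.96 and 1.11 on the vehicle arrays. VD 1 was the lowest array on both probes, and the other 5 arrays lay between 0.97 and 1.18 on the first and between 0.96 and 1.24 on the second. The label differences were -0.15 and -0.08 with pooled SDs of 0.14 and 0.18, and neither sorting by label nor by the CYP24A1 probe separated the arrays. The study counts this lncRNA among its dysregulated ones and describes its RT-PCR result as similar to its array result. Here the range over all 6 arrays was 0.38 and 0.47 (log2), below a fold change of 2 however the arrays are grouped.

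Other probes of LNC-LBCS did not all follow this pair. The array had 16 further probes in the sense direction of the gene, of which 2 were well above background on all 6 arrays, 8 on none and 6 on some. Both of the first kind, A_21_P0005010 and OEV5_46942, passed the filter, and with the pair that makes 4 tested probes of which limma called 0 between labels (adjusted p between 0.725 and 0.956). Of the 16, 5 were higher on VD 2, vehicle 1 and vehicle 3 than on any other array and 1 was lower, beside 2.66% and 5.83% of all probes, and each of these stayed at or below -1.51 on every array.

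Of these 5, the ones well above background on VD 2, vehicle 1 and vehicle 3 alone were OEV5_78485 and A_21_P0013139, named after their values were seen. OEV5_78485, at chr6:19534968-19535027, read -4.56, -1.82 and -4.19 on the VD arrays and -2.34, -4.85 and -2.23 on the vehicle arrays. A_21_P0013139, at chr6:19534965-19535024, read -3.88, -1.97 and -2.97 on the VD arrays and -2.43, -4.64 and -1.83 on the vehicle arrays. Both cover nearly the same bases, so they are close to a repeat measurement and do not count as separate observations among the 5. Far from these, OEV5_34652 and A_21_P0004736 lie on either side of the lncMBOAT1-4_2 pair and had that order too. OEV5_34652 read -2.84, -1.68 and -2.77 (VD) and -1.63, -2.55 and -1.51 (vehicle), and A_21_P0004736 read -5.30, -2.80 and -4.37 (VD) and -3.40, -4.16 and -2.62 (vehicle). The flat, brighter pair thus lay between dim probes that were not flat. OEV5_34652 was well above background on 4 arrays and A_21_P0004736 on 2, so their order rests in part on readings below that call. OEV5_46942, OEV5_34653 and OEV5_36436, a little further from the pair, did not have that order.

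MBOAT1, a lysophospholipid acyltransferase gene, had labelled groups that did not overlap at A_23_P408996. That was so for 1 of the 6 genes that the lncRNAs are named for or lie in, and for 8.61% of all probes. MBOAT1 read -0.45, -1.12 and -0.92 on the VD arrays and -1.86, -1.44 and -1.80 on the vehicle arrays. Its difference of 0.87 ± 0.221 (SE, n = 3 each) did not pass the test over all probes (limma adjusted p = 0.711).

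LncRWDD4-5_1 had the opposite order. OEV5_02929 read -1.19, -3.55 and -1.23 on the VD arrays and -2.79, 0.30 and -3.35 on the vehicle arrays. It was well above background on VD 1, VD 3 and vehicle 2, the arrays on which the CYP24A1 probe was dim, and on none of the other 3. Vehicle 2 stood highest, at 183 units of processed signal against 59.8 and 68.2 units on VD 1 and VD 3 and between 12.2 and 20.7 units on the remaining arrays. The means by label were -1.99 ± 1.35 (VD) and -1.95 ± 1.97 (vehicle; SD, n = 3 each).

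The spot of OEV5_02929 was uneven. The mean of its pixels was 128, 73.3 and 150 units on the VD arrays and 92.4, 269 and 79.1 units on the vehicle arrays, while the median pixel was 80, 62 and 97 (VD) and 78, 129 and 76 units (vehicle). The SD of the pixels over their mean reached 0.998 on vehicle 2 and was no lower than 0.416 on any array, against 0.101 to 0.254 on the 7 probes of the other lncRNAs except lncKRT7-2_2. The nearest bright spot, 38.3 µm away, had a mean of 289877 to 387553 units, and 0.0365% of all spots had a brighter neighbour. The part of this neighbour in the values was not tested. With the median pixel less background the 3 arrays with signal were still the highest, at 18.1, 22.8 and 59.7 units on VD 1, VD 3 and vehicle 2 against 2.22, 8.80 and 11.4 units on VD 2, vehicle 1 and vehicle 3.

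Other probes at the place of lncRWDD4-5_1 stayed dim. A_21_P0003548, at chr4:183732263-183732322, and OEV5_76919, at chr4:183732303-183732362, are the array's other probes within 1000 bases on that strand, and both missed the background call throughout. A_21_P0003548 lay between -4.98 and -4.04 and OEV5_76919 between -5.42 and -3.75. RWDD4, the gene of the lncRNA's name, read between -1.58 and -0.68 at a probe that also matches another chromosome, with a label difference of -0.10 ± 0.264 (SE, n = 3 each; limma adjusted p = 0.930).

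LncKRT7-2_2 had the same 3 arrays above background as lncRWDD4-5_1. OEV5_74819 read -1.04, -3.38 and -2.52 on the VD arrays and -4.0, -1.33 and -4.28 on the vehicle arrays. VD 1 and vehicle 2 were the highest arrays, at 66.2 and 59.3 units of processed signal, VD 3 followed at 27.7 units, and the other 3 lay between 7.16 and 13.7 units. The gap between VD 3 and VD 2 was 0.85, so the step between the higher and the lower arrays was narrow. By label the means were -2.31 ± 1.18 (VD) and -3.20 ± 1.63 (vehicle; SD, n = 3 each), and their difference of 0.89 is smaller than the pooled SD of 1.43.

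The probe that shares 59 bases with OEV5_74819 did not show this signal. OEV5_72745 missed the background call on all 6 arrays, with -3.86, -5.36 and -4.91 on the VD arrays and -3.76, -4.78 and -5.12 on the vehicle arrays. The spot of OEV5_74819 was uneven on VD 1 and vehicle 2, with a pixel SD over mean of 0.563 and 0.628, and that of OEV5_72745 lay between 0.140 and 0.261. A neighbour of the first, 35.4 µm away, had a mean of 83681 to 113150 units, and 1.38% of spots had a brighter neighbour, whereas the brightest neighbour of the second reached 490 units. With the median pixel less background, OEV5_74819 was at 34.8, 32.8 and 15.9 units on VD 1, vehicle 2 and VD 3 and at 3.91 to 7.80 units on the others, so the order was kept. The part of the neighbouring spot in this result was not tested.

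Across the array, such spots are few. Among dim spots, with a median pixel mean under 150 units over the arrays, 2779 lay beside a spot of over 50000 units, and 15.3% of them had a pixel SD over mean above 0.5 on at least 1 array, against 0.0515% of the other 112636. Of the dim spots that were uneven in that sense, 483 in all, 11.4% were lower on VD 2, vehicle 1 and vehicle 3 than on every other array by mean pixel less background, against 4.76% of the even ones. They were higher on those 3 arrays in 3.11% of cases, against 3.36%. OEV5_02929 and OEV5_74819 are both among the 483.

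The background calls show how rare each pattern was. The 5 probes of lncBCAS1-4_1 and lncZNF599-3_6 belong to 141 probes, or 0.112% of all, that were well above background on exactly VD 2, vehicle 1 and vehicle 3. Of these 141, 139 had 1 spot on the array. Among the 139, 2 were uneven on at least 1 array, and 5 lay beside a spot of over 50000 units. The probes of lncRWDD4-5_1 and lncKRT7-2_2 belong to 50 probes, or 0.0398%, that were well above background on exactly VD 1, VD 3 and vehicle 2. All 50 had 1 spot, 6 of them were uneven on at least 1 array, and 12 lay beside a spot of over 50000 units. The 9 probes were chosen on these arrays, so their membership of these lists is a description and no test.

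KRT7, the epithelial keratin gene near whose annotated start the lncKRT7-2_2 probe lies, was among the brightest mRNAs and did not follow it. Its coding-transcript probe A_33_P3350748 read 8.58, 8.67 and 9.16 on the VD arrays and 8.85, 9.03 and 9.41 on the vehicle arrays, with a label difference of -0.29 ± 0.224 (SE, n = 3 each; limma adjusted p = 0.741). Of the 6 KRT7 probes in the sense direction other than OEV5_74819, A_33_P3350748 among them, 4 were well above background on all arrays. None of the 6 had the order of OEV5_74819.

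The profile over the 6 arrays was compared with that of every probe well above background on 2 or more arrays, by the root mean square difference of log2 values after subtracting each probe's mean. Low values mean a close course over the arrays, in shape and in the size of the swing, and the mean level plays no part. A probe with a wide range, such as OEV5_63001 with 8.33, can therefore lie far from a probe of like shape. For lncBCAS1-4_1 the nearest probe was A_33_P3369401 of CYP24A1, at 1.42, and the next was that of MAP7D2, a microtubule-binding protein gene, at 2.21. MAP7D2 itself read -4.04, -1.38 and -4.66 (VD) and 0.05, -4.43 and -0.83 (vehicle). Both genes are among the mRNAs that the study lists as correlated with lncBCAS1-4_1 on these arrays, so their nearness is no separate result.

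The 4 probes of lncZNF599-3_6, with ranges of 3.23 to 3.77, had smaller differences to their nearest probes. These differences depend on the range, so they do not rank likeness of shape against lncBCAS1-4_1. All of the nearest probes had VD 2, vehicle 1 and vehicle 3 on top. PTGER2, a prostaglandin E2 receptor gene, was nearest to A_21_P0009803 at 0.25 and was among the 5 nearest of OEV5_42261 and OEV5_39684, at 0.438 and 0.383. It read -2.89, -1.28 and -4.44 on the VD arrays and -1.82, -4.75 and -2.27 on the vehicle arrays. The lncRNA UCA1 was nearest to OEV5_42261 at 0.314, and TRPV6, from the vitamin D list, was nearest to OEV5_39684 at 0.345. Which gene came nearest rests in part on VD 1, VD 3 and vehicle 2, where none of the 4 overlapping probes was well above background. OEV5_42562 had GEM, a small GTP-binding protein gene, as the nearest at 0.369, with -0.19, 2.75 and -0.58 on the VD arrays and 2.78, 0.43 and 2.76 on the vehicle arrays. KIT, the stem cell factor receptor gene, and COL1A1, a collagen gene, were among the nearest of the junction probes, at 0.363 to 0.435. PTGER2, TRPV6, GEM, KIT and COL1A1 are also among the mRNAs that the study lists as correlated with lncBCAS1-4_1 on these arrays. Their nearness is therefore a description and no separate support.

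For lncRWDD4-5_1 the nearest probe was A_21_P0004190, which matched no annotated transcript in the sense direction, at 0.395. It read -0.68, -2.66 and -0.93 on the VD arrays and -1.61, 0.36 and -2.37 on the vehicle arrays. MEGF6, a gene for a protein with EGF-like repeats, followed at 0.416 with 2.24, 0.53 and 2.56 (VD) and 1.68, 3.58 and 0.80 (vehicle), bright on all 6 arrays. The study lists MEGF6 as negatively correlated with lncBCAS1-4_1 on these arrays, so this too is a description. LncKRT7-2_2 had a probe of the pseudogene ADCY10P1 as its nearest, at 0.307, which was well above background on 2 arrays. The likeness rests on 6 arrays that fall into separate levels, so no correlation is given.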

How the data were processed

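SKOV3 RNA was measured on 6 single-colour Agilent arrays, 3 per label. The authors extracted spot intensity with Agilent Feature Extraction 10.7.1.1, per the labels, and deposited the scanner output with its processed signal (background-subtracted intensity), pixel statistics and flag columns, which are other values (0 or 1). They also deposited a table of log2 values that has the same distribution in every column, and it was used as an alternative. Here spots flagged as outliers and control spots were left out, spots of a probe were averaged, and log2 processed signal was taken less the 75th percentile of each array. Label contrasts used limma 3.58.1 in R 4.3.3 on probes that met the background call on each of the 3 arrays of either label, with Benjamini-Hochberg adjustment over all tested probes; the scripts were tested on simulated data. The scanner headers name hg19 but hold no positions, so positions are exact matches to hg38. The sequences and positions of the lncMBOAT1-4_2 probes are not reported here. A gene was named by a sense match to a GENCODE transcript, and gene lists used the probe with the highest mean signal.

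The named probes are the 9 members, other probes of their loci, the genes in their names, 10 vitamin D genes, cell type markers and the 5 nearest profiles of each member that was above background on 2 or more arrays with a range over 2. Members and lists were chosen with earlier results of these data known. The number of arrays, not read depth, limits the precision. Alternatives covered background correction, scaling, a floor, the filter, slide and replicate blocks, and leaving out each array.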

Additional observations from a re-analysis of the deposited data

How the results depend on the processing

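In every alternative run, 0 probes passed a fold change of 2 with adjusted p under 0.05. The 514 probes that passed it with unadjusted p (372 higher and 142 lower with the VD label) became 32 with normexp correction (15 and 17), 206 with a floor on dim values (130 and 76), 162 when a probe had to be above background on 6 arrays (100 and 62), 2006 without a filter (1300 and 706) and 791 with slide as a block (454 and 337). Leaving out 1 array gave 357 (without VD 1) to 1597 (without VD 3), with 953 without VD 2 and 1325 without vehicle 1; a label left with 2 arrays shares the spread of the other. Slide 1 held VD 1 and VD 2 alone, so with slide as a block the difference is that of VD 3 against the vehicle arrays on slide 2.

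That block moved the label difference by more than 1 SD in 3 probes, to -2.55 for OEV5_42261, 0.04 for OEV5_35072 and 0.16 for OEV5_36693, turning the sign of the last 2. VD 1 and VD 2 play no part in these differences, and why VD 3 differed from VD 1 and VD 2 was not tested. With the slide block the difference was -5.39 for OEV5_63001 and 0.72 for OEV5_02929, against -0.04 for the latter without it. Normexp and the floor, which act on dim values, gave -1.46 and -2.08 for OEV5_63001, -0.33 and -0.60 for OEV5_42562 and 0.17 and 0.08 for OEV5_74819. Without 1 array the differences were -5.56 to -1.51 (OEV5_63001), -1.09 to 0.52 (A_21_P0009803), -1.66 to 0.13 (OEV5_42261), -1.55 to 0.08 (OEV5_39684), -2.31 to -0.50 (OEV5_42562), -0.24 to -0.06 (OEV5_35072), -0.20 to 0.03 (OEV5_36693), -0.74 to 1.08 (OEV5_02929) and 0.25 to 1.83 (OEV5_74819).

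The order by array held for 7 probes in the deposited log2 table, under normexp, and by median pixel, the last chosen after seeing the data. By largest difference, 24 of the 35 nearest profiles remained. Deviations from the label means correlated at 0.124, 0.0943 and -0.0352 between same-numbered samples, and at -0.256 to 0.201 between differently numbered ones. These deviations also hold the split of the arrays seen at CYP24A1, so they cannot decide whether the replicate numbers pair the samples. The replicate block gave 625 probes with unadjusted p and the same difference of -2.92 for OEV5_63001.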
